A study of Xenopus tropicalis with 8 samples.

Results

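The heat shock protein gene hspa1b and the heme oxygenase gene hmox1 were followed in cultured testes of a frog, Xenopus (Silurana) tropicalis, taken from juvenile males. They are 2 of the 3847 genes with a symbol that were tested on the array. Both were chosen because an earlier reading of these same arrays had singled them out, within short lists of stress genes, as lower with finasteride. Their difference between the groups is therefore given as a description with no test. The array holds 32899 probes, each with an accession and no gene name. A probe was assigned to a gene where its accession, without version number, was a transcript of that gene in the RefSeq gene table of Xenopus tropicalis, and this gave 1 probe for each gene. Both probes carry the word specific in their name and are printed at 2 spots per array. Only 5891 probes matched a RefSeq transcript of any gene. Whether any unmatched probe also reads hspa1b or hmox1 was not tested.

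The finasteride group was tissue kept for 6 h at 26 °C in L-15 culture medium that held 5 µM finasteride. This drug blocks steroid 5-alpha-reductase, which turns testosterone into dihydrotestosterone. The control group was tissue kept for the same time and at the same temperature in that medium with 0 µM finasteride. Each group has 4 arrays, of total RNA labelled with a single dye (Cy3). The series describes 8 samples per arm and does not state whether an array holds the RNA of 1 animal or of a pool. How far the spread between arrays is biological or technical is therefore not known. All tissue, controls included, had been taken out of the animal and cultured, and no uncultured tissue was analysed here.

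Hsp70 proteins are chaperones that bind exposed stretches of unfolded proteins and release them in cycles driven by ATP, with Hsp40 proteins as partners that deliver the client. The gene hspa1b encodes a member of this family that cells make in large amounts after heat or other damage to proteins, under the control of heat shock factors, while its relative hspa8 is made all the time. The enzyme encoded by hmox1 opens the heme ring and releases iron, carbon monoxide and biliverdin, and its gene is known in mammals to be held down by the heme-sensing repressor BACH1 and switched on by NRF2, the main regulator of antioxidant genes. Both genes are common readouts of stress in tissue that has been cut and cultured.

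The arrays differed in overall brightness. The 75th percentile of processed intensity lay between 896 and 1798 on the finasteride arrays and between 719 and 1686 on the control arrays, and 70.6% to 86.9% of probes were well above background on finasteride arrays, against 73.3% to 77.3% on control arrays. A level below is the log2 processed intensity of a probe minus the 75th percentile of its own array, so that 0 stands for that percentile, and differences are finasteride minus control. Each of the 2 slides held 2 arrays of each group. Finasteride lay at positions 2 and 4 and control at positions 1 and 3 of each slide, and treatment and position cannot be told apart. Precision is limited by the number of arrays.

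The level of hspa1b was 5.64, 5.32, 4.56 and 5.10 on finasteride arrays 1 to 4, against 6.32, 6.14, 5.69 and 6.52 on control arrays 1 to 4. All finasteride values were below all control values, but finasteride 1 and control 3 were only 0.04 apart. The mean level was 5.15 ± 0.45 with finasteride and 6.17 ± 0.36 in controls (SD, n = 4 each), a difference of -1.01 with a standard error of 0.29. On the linear scale the geometric mean with finasteride was 49.6% of that in controls. The finasteride arrays spanned 1.08 and the control arrays 0.83 on the log2 scale, so the difference between the groups was about as large as the span within either.

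The level of hmox1 was -0.46, 0.27, 0.23 and 0.09 on finasteride arrays 1 to 4, against 0.64, 0.99, 0.57 and 0.70 on control arrays 1 to 4. Again no finasteride value reached the lowest control value, and here the nearest arrays, finasteride 2 and control 3, were 0.30 apart. Finasteride 1 stood below the other finasteride arrays. The mean level was 0.03 ± 0.34 with finasteride and 0.72 ± 0.18 in controls (SD, n = 4 each), a difference of -0.69 with a standard error of 0.19. On the linear scale this put the geometric mean with finasteride at 61.8% of that in controls. In this bulk tissue, fewer cells of a type that makes the transcript and less transcript per cell cannot be told apart.

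**Figure D1:**
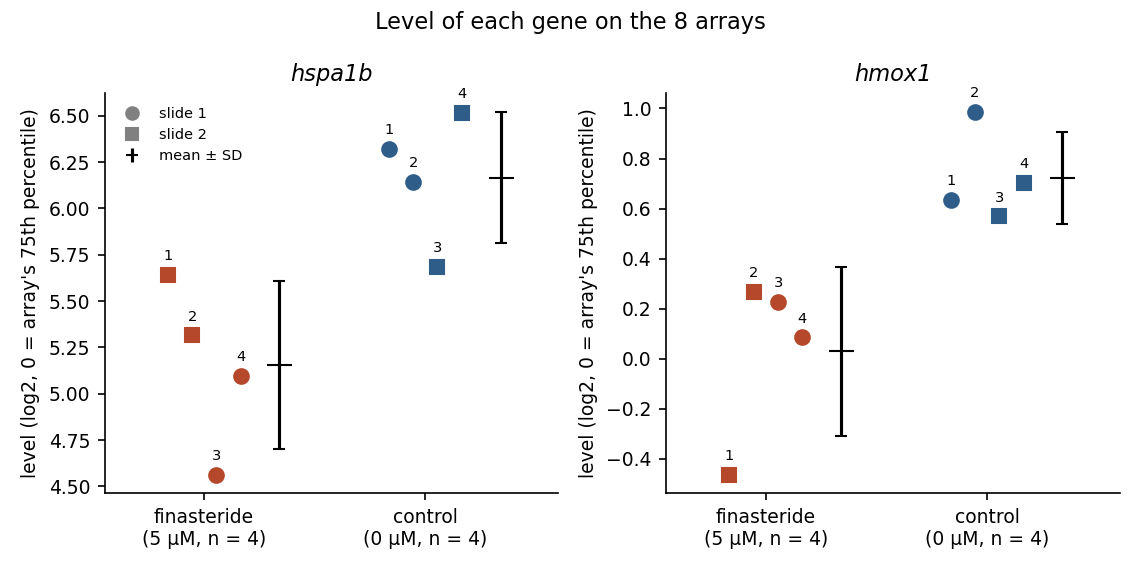
Level of hspa1b (left) and hmox1 (right) on each array, in log2 units relative to the array's 75th percentile, for 4 finasteride arrays (5 µM) and 4 control arrays (0 µM). Points carry the replicate number, circles are slide 1, squares are slide 2, and the bar is the mean ± SD. The finasteride means are 5.15 and 0.03, the control means are 6.17 and 0.72, and no finasteride point reaches the lowest control point.

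Because the genes were chosen on this contrast, nothing is read from the separation of their groups, and the figures for the whole array are given beside it. The standard errors above do not allow for that choice either. Of the 25656 probes tested, 1.06% had every finasteride value below every control value and 1.02% the reverse. A difference at or below that of hspa1b was found for 150 probes (0.585%), and at or below that of hmox1 for 429 probes (1.67%). Over all probes, limma called none at an adjusted p under 0.05 (0 of 25656, 0%), with 1025 probes (4.00%) at an unadjusted p under 0.05, of which 440 (1.71% of all) were lower with finasteride. Neither gene is among probes that passed the adjustment over the whole array, since none did.

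Before any scaling between arrays the groups overlapped for both genes. The mean processed intensity of hspa1b was 44779, 71601, 39287 and 38147 on finasteride arrays 1 to 4, against 57486, 104271, 86794 and 75574 on control arrays 1 to 4. Finasteride 2, the brightest array as a whole, exceeded control 1, the dimmest. For hmox1 the mean processed intensity was 649, 2164, 1949 and 1183 on finasteride arrays 1 to 4, against 1118, 2925, 2502 and 1343 on control arrays 1 to 4, and the 2 groups lay across each other. In unscaled log2 intensity the difference was -0.76 for hspa1b and -0.44 for hmox1, and the standard deviation of hmox1 was 0.79 with finasteride and 0.67 in controls, against 0.34 and 0.18 after scaling. For hspa1b the unscaled standard deviation was 0.42 with finasteride and 0.36 in controls, close to 0.45 and 0.36 after scaling.

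**Figure D2:**
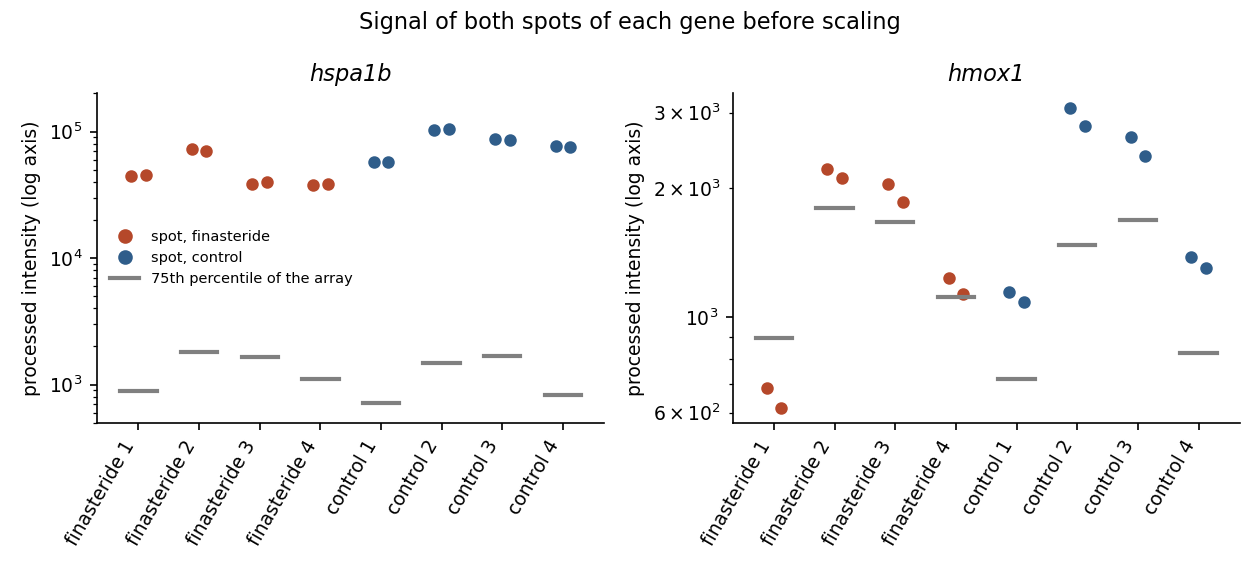
Processed intensity of both spots of hspa1b (left) and hmox1 (right) on each array, on log axes, before scaling. Grey bars mark the 75th percentile of the same array. The pairs of spots lie close together, and the hmox1 spots run from 616 on finasteride 1 to 3066 on control 2.

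The spots of a gene gave nearly the same value. On any array the spots of hspa1b differed by at most 0.06 and those of hmox1 by at most 0.15 on the log2 scale, and none was flagged as an outlier or saturated. The first spot alone gave a difference of -1.02 for hspa1b and -0.69 for hmox1, and the second alone gave -0.70 for hmox1. The span of either gene within a group was larger than the gap between its spots.

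The slides gave the same direction, which they had to, since the groups did not overlap in the reported scaling. For hspa1b the sizes differed. On slide 1 the mean level of hspa1b was 4.83 with finasteride and 6.23 in controls, a difference of -1.40. On slide 2 it was 5.48 with finasteride and 6.10 in controls, a difference of -0.62. For hmox1 the difference was -0.65 on slide 1 (0.16 with finasteride, 0.81 in controls) and -0.73 on slide 2 (-0.10 with finasteride, 0.64 in controls). Whether the difference of hspa1b depends on the slide was not tested, with 2 arrays of each group on a slide. The level was also compared between slides, a contrast not used to choose the genes, with group as a covariate. The hspa1b level on slide 2 minus slide 1 was 0.26 (95% interval -0.34 to 0.86, limma adjusted p = 1.00), and the hmox1 level -0.22 (-0.68 to 0.24, limma adjusted p = 1.00). With 1 array left out the slide difference ran from 0.07 (without finasteride 3) to 0.50 (without control 3) for hspa1b, and from -0.35 (without finasteride 2) to -0.06 (without finasteride 1) for hmox1. Of all 25656 probes 0% passed that comparison (limma), with 491 (1.91%) at an unadjusted p under 0.05.

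Within the groups the order of the arrays differed between the genes, apart from single shared positions. Control 3 was the lowest control array in both, and finasteride 4 the next to lowest finasteride array in both. Finasteride 1 had the highest hspa1b level of its group and the lowest hmox1 level. Finasteride 3 had the lowest hspa1b level of its group and an hmox1 level near the top. Deviations from the group means gave a Pearson r of -0.42 (exact permutation within groups, two-sided p = 0.378, adjusted p = 0.631 over 5 relations, n = 8) and a Spearman rho of -0.29 (exact permutation p = 0.559, adjusted p = 0.699). Without finasteride 3 and control 3, the arrays farthest from the median in hspa1b, r was -0.77, and without finasteride 1 alone it was 0.16, so the sign rests on finasteride 1. The same correlation was 0.02 in the authors' deposited table.

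**Figure D3:**
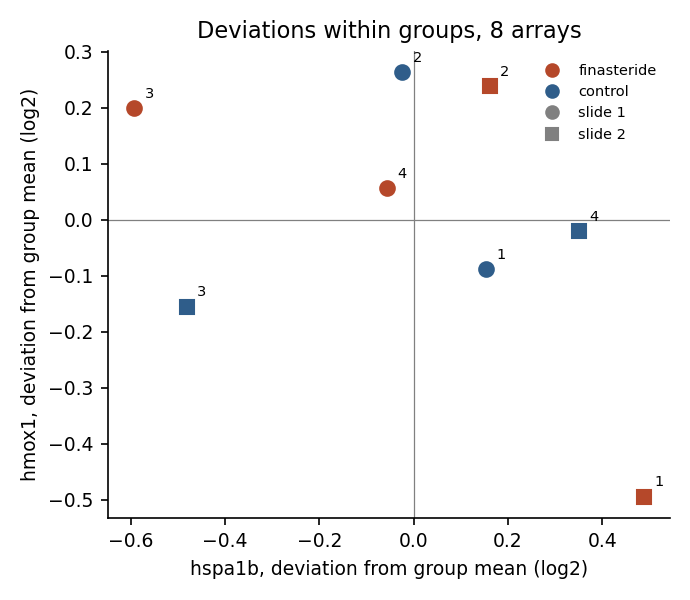
Deviation of each array from its group mean, hspa1b on the horizontal axis and hmox1 on the vertical axis, both in log2 units, for 4 finasteride and 4 control arrays. Numbers are replicates, circles are slide 1 and squares slide 2. Finasteride 1 sits alone at lower right, and r over the 8 arrays is -0.42.

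The other 4 relations set each gene against the state of the array. With the log2 of the array's 75th percentile, which enters the level with a minus sign, deviations of hspa1b had r = -0.70 (exact permutation p = 0.0781, adjusted p = 0.378, rho = -0.50 with exact permutation p = 0.233 and adjusted p = 0.573, n = 8), and r = -0.52 without finasteride 3 and control 3. Those of hmox1 had r = 0.58 (exact permutation p = 0.151, adjusted p = 0.378, rho = 0.43 with exact permutation p = 0.344 and adjusted p = 0.573, n = 8), and r = 0.31 without finasteride 1 and control 2. With the percent of probes well above background, r was -0.30 for hspa1b (exact permutation p = 0.637, adjusted p = 0.637, rho = -0.12 with exact permutation p = 0.799 and adjusted p = 0.799, n = 8, and 0.40 without finasteride 3 and control 3). It was 0.34 for hmox1 (exact permutation p = 0.601, adjusted p = 0.637, rho = 0.50 with exact permutation p = 0.273 and adjusted p = 0.573, n = 8, and 0.43 without finasteride 1 and control 2).

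The relatives of hspa1b that could be read are given with their own differences. Since hspa1b was chosen on this contrast, its larger difference is not compared with theirs, and no probe of the array passed. Of 17 genes listed for the Hsp70 family 5 were named on a probe, and the 4 beside hspa1b were all tested. In limma 0 of the 4 passed the adjusted threshold (background 0%), and 0 at an unadjusted p under 0.05. The constitutive hspa8 had levels of 5.32, 5.16, 5.22 and 4.65 on finasteride arrays 1 to 4, against 5.26, 5.03, 5.33 and 5.27 on control arrays 1 to 4. These ranges overlap, and only finasteride 4 lies outside the control range. The difference of hspa8 was -0.14 (95% interval -0.55 to 0.28). The endoplasmic reticulum chaperone hspa5, also called BiP, had -0.16 (-0.48 to 0.17), and the distant family members hspa12a and hspa12b had -0.22 (-0.57 to 0.13) and -0.02 (-0.73 to 0.69). Whether the hspa1b probe also reads near-identical Hsp70 copies was not tested.

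Partners and regulators of Hsp70 did not pass either. Of 46 Hsp40 genes listed 5 were tested, 3 with values below 0 and 2 above, and 0 passed. The mitochondrial dnajc30 had a level of 0.50 ± 0.30 with finasteride and 0.98 ± 0.13 in controls (SD, n = 4 each), a difference of -0.48 (-0.89 to -0.07), and its groups overlapped. The others named were dnajc5b at -0.19, dnajc14 at -0.04 and dnajc12 at 0.52 (-0.48 to 1.51), the last well above background on 4 finasteride arrays and 2 control arrays. Of 6 heat shock factors and co-chaperones tested, out of 35 listed, 4 had values below 0 and 0 passed. Among them were the heat shock factor hsf3 at -0.31 (-1.40 to 0.78), the Hsp70 nucleotide exchange factors bag1 at -0.18 and bag4 at 0.11, and the Hsp90 co-chaperone relative cdc37l1 at -0.10. Of 12 other heat shock proteins and chaperonins tested, out of 32 listed, 5 had values below 0 and 7 above, and 0 passed. The small heat shock proteins hspb6 and hsp30e had 0.27 and -0.18. The gene hspb11, listed by its symbol alone, had 0.18, and the mitochondrial protease subunit clpp 0.20. The values of dnajc5b, dnajc12, hspb6 and hsp30e come from probes named xhyb, which may also read other transcripts.

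Around hmox1, the heme and iron genes divided evenly. Of 51 genes listed 17 were named on a probe and 15 tested, hmox1 among them. Of the other 14, 7 had values below 0 and 7 above, with a median of -0.08 beside 0.01 over all probes tested. In limma 0 passed the adjusted threshold (background 0%), and 1 had an unadjusted p under 0.05. That gene was iba57, which helps to assemble iron-sulfur clusters in mitochondria. Its levels were -0.16, -0.07, -0.20 and -0.76 on finasteride arrays 1 to 4, against 0.38, 0.49, 0.01 and 0.41 on control arrays 1 to 4. The groups did not overlap, and the difference was -0.62 (95% interval -1.07 to -0.17, limma adjusted p = 1.00). It was -0.92 within slide 1, -0.32 within slide 2 and -0.27 with normexp on the median signal.

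The repressor gene bach1 had a difference of -0.44 (-1.13 to 0.26). It exceeded background clearly on 3 finasteride arrays and 4 control arrays. The difference of bach1 was -0.17 without finasteride 4, -0.24 without control 4 and -0.16 with the uncorrected median signal. It was 0.80 with normexp, where the median of all probes was 0.23, and -0.20 with normexp and flagged backgrounds replaced. The last steps of heme synthesis showed no shared direction, with cpox at -0.16, ppox at -0.26 (-0.86 to 0.34) and ferrochelatase, fech, at 0.02. Ferrochelatase had -0.32 within slide 1 and 0.36 within slide 2. The mitochondrial iron importer slc25a37 had -0.38 (-0.81 to 0.06) and the copper-carrying ferroxidase cp -0.23 (-0.72 to 0.26). The heme exporter flvcr1 had 0.14 and the ferritin receptor ncoa4 0.03. Among the other iron-sulfur cluster genes, nfs1 had 0.17, frataxin (fxn) 0.12, isca1 0.01 and isca2 -0.34 (-1.63 to 0.96). The probes of cpox, slc25a37 and isca2 are named xhyb. The limma adjusted p was 1.00 for each.

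**Figure D4:**
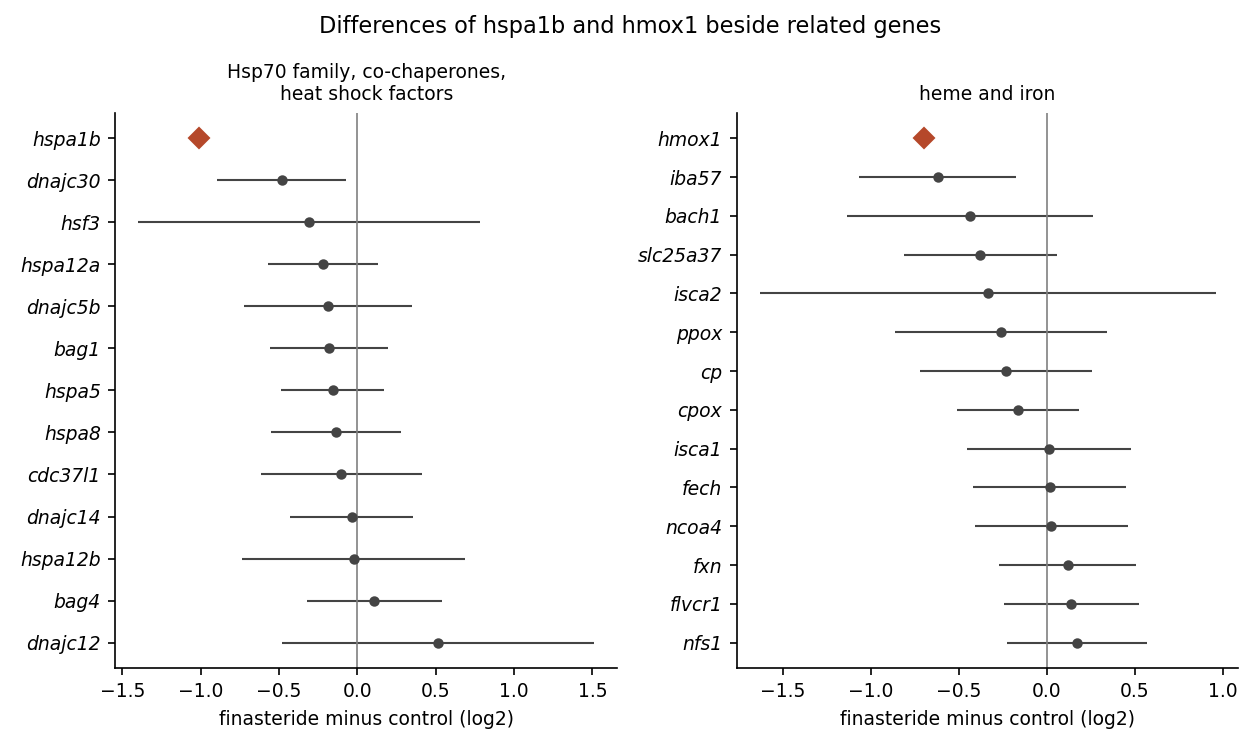
Difference between finasteride and control on the log2 scale for hspa1b with Hsp70 relatives, Hsp40 genes, heat shock factors and co-chaperones (left), and for hmox1 with heme and iron genes (right). Diamonds are hspa1b (-1.01) and hmox1 (-0.69), given without an interval because they were chosen on this contrast, and circles are the other genes named in the text with 95% limma intervals. Apart from dnajc30 and iba57, every interval shown includes 0.

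Across the 10 stress lists 84 genes other than hspa1b and hmox1 were tested. None passed the adjusted threshold in limma (0, background 0%), and 3 (3.57%) had an unadjusted p under 0.05, beside 4.00% of all probes. The groups did not overlap for 2 of the 84 (2.38%), beside 2.08% of all probes. Of the 84, 50 (59.5%) had values below 0, beside 48.8% of all probes, and their median was -0.06 beside 0.01. The 3 genes at the unadjusted threshold were dnajc30, iba57 and angptl4, a secreted lipase inhibitor in the hypoxia list. The level of angptl4 was 0.66, 0.27, -0.03 and 0.73 on finasteride arrays 1 to 4, against 0.98, 1.47, 0.96 and 1.47 on control arrays 1 to 4, without overlap, and its difference was -0.81 (95% interval -1.31 to -0.31, limma adjusted p = 1.00).

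Among antioxidant genes and targets of NRF2, 9 of 72 were tested, 5 with values below 0 and 4 above, and 0 passed. The glutathione peroxidase gene gpx1 had -0.45 (-1.14 to 0.23) and the thioredoxin-binding txnip -0.25, both from xhyb probes, nfe2l3, a relative of NRF2, had -0.20, and osgin1 0.25. Of 12 genes tested for the unfolded protein and integrated stress response, out of 51, 7 had values below 0 and 0 passed. The sensor relative atf6b had -0.24, the pseudokinase trib1 -0.25 and the glutathione-degrading chac1 0.18. The stress transcription factor ddit3, on an xhyb probe, stood well above background on 3 finasteride arrays and 0 control arrays. Its mean levels were -5.10 with finasteride and -5.55 in controls, a difference of 0.44 (-0.19 to 1.08, limma adjusted p = 1.00). The difference of ddit3 was 0.10 with the uncorrected median signal, 0.04 with normexp and flagged backgrounds replaced, 0.22 without finasteride 3 and -0.08 within slide 2, so no fold is given.

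In the remaining stress lists, 4 of 37 hypoxia genes were tested, and beside angptl4 they included the oxygen sensor egln2 at -0.15 and the kinase pdk1 at 0.06. Of 11 immediate early genes tested, out of 38, 10 had values below 0 with a median of -0.18, and 0 passed. Over all probes tested 48.8% had values below 0, and the median was 0.01. The list was chosen with earlier results of these data known, so no shared decrease is read from the count. The transcription factors fosl1, junb and atf3 had -0.48 (-1.17 to 0.20), -0.38 (-1.02 to 0.25) and -0.38 (-0.82 to 0.05), and the growth arrest gene gadd45b had -0.20. Of 8 genes of the ubiquitin-proteasome list tested, out of 44, 4 had values below 0 and 0 passed, with zfand2a at 0.23, psmd11 at 0.17, uchl5 at -0.14 and usp14 at -0.06. The probes of fosl1, zfand2a and usp14 are named xhyb.

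The genes whose deviations from the group means were most like those of hspa1b over the 8 arrays were sought among 3841 named genes with a value on every array. They were lamb2, a basement membrane laminin chain (r = 0.97), borcs6, a subunit of a complex that positions lysosomes (0.96), spata20 (0.95), iah1 (0.95) and the oxysterol hydroxylase cyp39a1 (0.95). In all 5, as in hspa1b, finasteride 1 was the highest and finasteride 3 the lowest of the finasteride arrays, and control 3 was the lowest control. One of them, spata20, is an example, with 1.02, 0.82, 0.21 and 0.57 on finasteride arrays 1 to 4, against 1.35, 1.08, 0.55 and 1.20 on control arrays 1 to 4. Over the plain levels the correlation with hspa1b was 0.90 for spata20, 0.77 for borcs6, 0.76 for cyp39a1, 0.67 for iah1 and 0.02 for lamb2, which was higher with finasteride by 0.39. These are the highest of 3841 correlations over 8 arrays and are given without a p.

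For hmox1 the most alike included casp10, a caspase (r = 0.99), srebf1, a transcription factor of lipid synthesis (0.99), gucy1a1, a subunit of soluble guanylate cyclase (0.98), and cpne8, a copine (0.98). In each of these 4 genes finasteride 1 was the lowest of all arrays, as it was in hmox1. The choice of the highest of 3841 correlations favours genes that share this array, so nothing is read from it. Again no p is given. The level of cpne8, for example, was 0.35, 1.84, 1.69 and 1.53 on finasteride arrays 1 to 4, against 1.56, 2.05, 1.46 and 1.85 on control arrays 1 to 4. Over the plain levels the correlation was 0.92 for gucy1a1, 0.83 for cpne8, 0.74 for srebf1 and 0.61 for casp10. The probes of casp10 and srebf1 are named xhyb. On the same measure hmox1 ranked 2913 for hspa1b, and hspa1b 2952 for hmox1.

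Markers of the cells a testis sample can hold were measured beside these genes. The germ cell genes hormad1 and dnai2 were well above background on all arrays, the meiotic hormad1 with a level of 3.76 ± 0.31 with finasteride and 3.82 ± 0.23 in controls (SD, n = 4 each) and the flagellar dynein dnai2 with 2.99 ± 0.08 with finasteride and 2.85 ± 0.15 in controls. For each of the 9 marker lists, the summed level (on the linear scale, 1 being the array's 75th percentile) overlapped between the groups, and 0 marker genes passed in limma. Such a sum can rest largely on 1 gene. The peritubular and smooth muscle list had 1 tested gene, des.2. In the spermatogonia and meiosis list hormad1 supplied 82.2% to 91.1% of the sum, and in the spermatid list dnai2 supplied 48.6% to 63.4%. Of the 33 marker genes tested, however, 4 (12.1%) had groups that did not overlap, beside 2.08% of all probes, namely spata6, krt18.2, epb41 and slc12a3. Likewise 4 (12.1%) had an unadjusted p under 0.05, beside 4.00% of all probes, namely krt18.2, igf1, epb41 and slc12a3. The probe of epb41 was well above background on 4 finasteride arrays and 1 control array, so it was tested only through the finasteride group. The difference of spata6 was 0.40 without finasteride 3, and that of krt18.2 was 0.27 with the uncorrected median signal. No excess of changed markers is read from these shares. For leukocytes and macrophages, macrophages being known to make hmox1 when they clear red cells, 6 of 32 listed genes were tested, and the sum ran from 9.07 to 11.6 on finasteride arrays and from 10.0 to 11.6 on control arrays. Between 88.8% and 93.7% of that sum came from 1 gene, laptm5, read on an xhyb probe, and the other leukocyte genes lay below level 0 on every array. For erythrocytes 3 of 23 were tested, and the sum ran from 0.139 to 0.213 on finasteride arrays and from 0.112 to 0.749 on control arrays. Over the arrays slc4a1 supplied 20.8% to 79.5% of that sum. Its level was -0.75 on control 4, against -4.94 to -3.30 on the other controls. The sums were 2.19 to 3.33 with finasteride and 2.37 to 3.00 in controls for endothelium (4 of 15 tested), and 2.69 to 3.09 with finasteride and 2.38 to 3.71 in controls for Leydig cells (4 of 14 tested). The gene tie1 supplied 83.9% to 91.4% of the endothelium sum. Both laptm5 and tie1 were named after their values were seen. The part of these cells in the differences of hspa1b and hmox1 was not tested.

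Among single markers, the Sertoli cell list had krt18.2 at 0.69 (0.27 without background correction), ar at 0.19 and sox8 at -0.11. The Leydig cell list had igf1 at -0.62, fdx1 at 0.39 and star at -0.33, and the erythrocyte list had epb41 at 1.26, slc4a1 at -0.72 and sptb at -0.62. The xhyb probe of epb41 was well above background on 4 finasteride arrays and 1 control array, and its difference was 0.44 with the uncorrected median signal and 0.35 with normexp and flagged backgrounds replaced. The value of slc4a1 rested on control 4, at -0.75 against -4.94 to -3.30 on the other controls, and without it the difference was 0.16. For sptb the difference was -0.26 without finasteride 1. Leukocyte genes cd74, cxcr4 and mpo had 0.47, -0.22 and 0.10. Of these, cd74 was well above background on 3 finasteride arrays and 1 control array, and cxcr4 on 3 finasteride arrays and 2 control arrays. The difference of cd74 was 0.09 with the uncorrected median signal, 1.00 with normexp and 0.03 with normexp and flagged backgrounds replaced. The endothelial robo4, flt1 and tek had -0.20, -0.16 and -0.13. The spermatid list had spata6 at 1.00, dnah7 at -0.22 and dnai2 at 0.13. For spata6 finasteride 3 stood at 0.25, against -2.39 to -1.89 on the other finasteride arrays, and without it the difference was 0.40. In the list of spermatogonia and meiosis piwil1 had 0.29 and hormad1 -0.06. In smooth muscle des.2 had 0.50, and in kidney and fat body slc12a3 had -0.74, lrp2 -0.30 and lpl 0.03. The limma adjusted p was 1.00 for each.

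The differences of hspa1b and hmox1 stayed below 0 under each of 21 alternatives, beside 2 balanced blocks (slide and replicate number) that cannot change a mean difference. Leaving out an array or taking a slide alone could not turn the sign either, since the groups did not overlap in the reported scaling. The other alternatives reprocess the same arrays on which the genes were chosen. The differences of hspa1b ran from -1.40 (within slide 1) to -0.62 (within slide 2). Those of hmox1 ran from -0.77 (without finasteride 2) to -0.44 (with no scaling). The separation of the groups was less stable. With no scaling the groups of both genes overlapped. Of 9 scalings of the signal, 1 was that reported above and 1 was added after seeing the data. Under 8 of the 9 no finasteride value reached the lowest control value of either gene. The exception was normexp background correction of the median signal, where control 4 fell to 4.29 for hspa1b, among finasteride values of 3.74 to 5.19, and to 0.07 for hmox1, among finasteride values of -0.36 to 0.23. In that correction the fitted background mean of control 4 was -2284, against 1.73 on control 2, and the highest local background of any spot on control 4 was 328037, against a median of 36.5. With the local background of spots flagged for it replaced by the array's median, the fitted mean of control 4 was 4.02 and the groups were again apart, by 0.12 for hspa1b and 0.24 for hmox1.

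**Figure D5:**
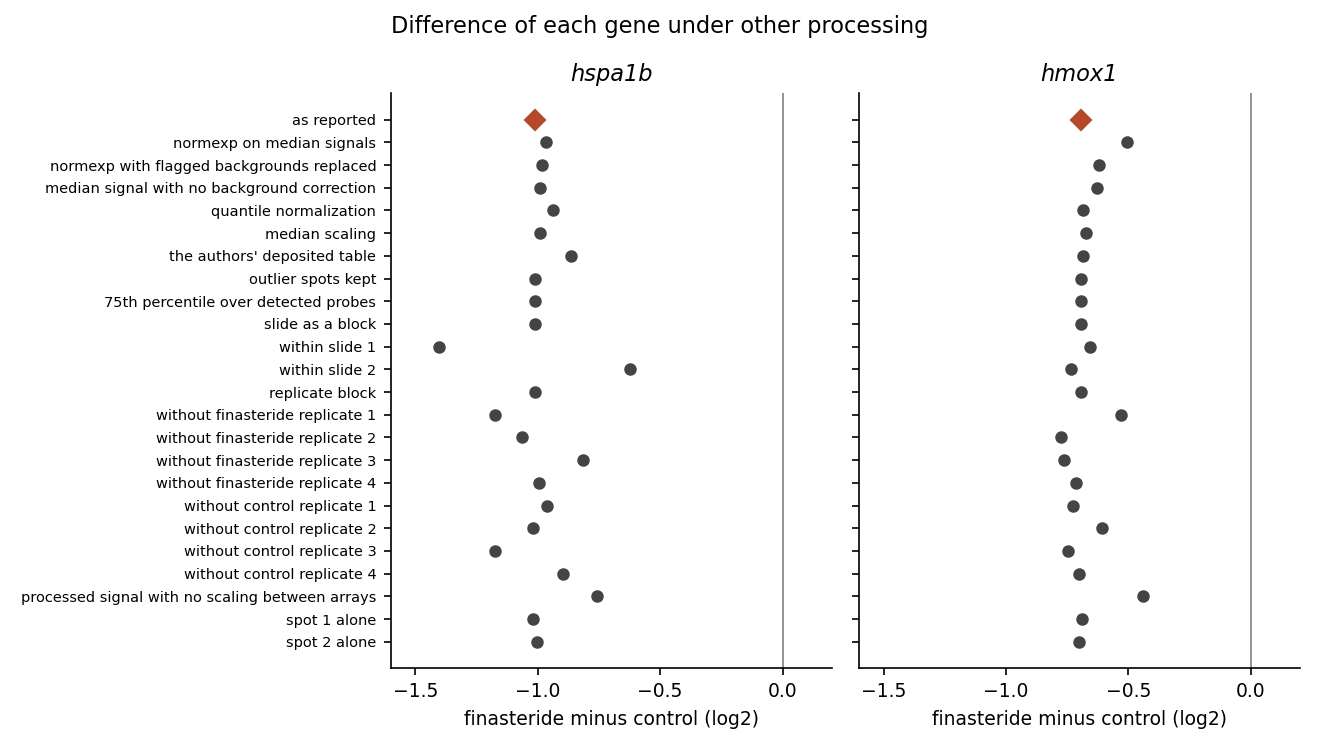
Difference between finasteride and control (log2) of hspa1b (left) and hmox1 (right) as reported (diamond) and under each alternative (circles), from top to bottom. Values run from -1.40 to -0.62 for hspa1b and from -0.77 to -0.44 for hmox1, all left of the line at 0.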

How the data were processed

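RNA from cultured testis was measured on 8 Agilent one-colour arrays. Spot intensity was deposited as scanner output. The software, per the file headers, was Agilent Feature Extraction 10.7.1.1, and the headers name the JGI 4.1 build while columns flag spots that were outliers, saturated, well above background or of outlying local background. The authors' deposited table holds log2 values with a median of 7.25 on every array that correlated with log2 processed intensity at 0.997 or more. How that table was normalized is not stated in the files or labels.

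For each array, log2 processed intensity was averaged over the spots of a probe, without outlier and control spots, and each array's 75th percentile over probes was subtracted. Probes well above background on at least 3 of 4 arrays of a group, 25656 of 32899, went into two-sided tests by lmFit and eBayes (limma 3.58.1, R 4.3.3) with Benjamini-Hochberg adjustment over all of them and a threshold of 0.05. A probe counted as well above background where at least 0.5 of its spots were flagged so, a rule set after the share of detected probes was seen. Permutation tests used scipy 1.17.1 and all 576 orders within groups. The steps were tested on simulated arrays. Of all probes 5891 matched a RefSeq transcript of assembly UCB_Xtro_10.0 and 4872 had a symbol. Where several probes carried a gene, the one with the highest mean signal stood for it. Coordinates and sequences were not used here.

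The genes, the 10 stress lists and the 9 marker lists were chosen with earlier results of these data known. The rule named hspa1b and hmox1, every tested gene of the Hsp70 and heme lists, up to 4 genes of largest absolute difference from other stress lists and 3 from marker lists, and the 5 genes most like each member. Of these, 4 are not reported here. The planned mean signal was not in the files, so the median signal took its place in 2 alternatives. The other alternatives changed the normalization, the filter on dim probes, array weights, slide, replicate block and arrays used. The normexp fit with flagged backgrounds replaced, the unscaled signal and the correlation under other scalings were added after seeing the data. Arrays with the same number had deviations that correlated at 0.30, 0.37, -0.06 and -0.03. These values cannot decide whether the numbers pair samples. Correlations between differently numbered arrays are not given, and arrays with the same number lay on different slides. Replicate numbers were not taken to pair samples.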

Additional observations from a re-analysis of the deposited data

Results flagged for a closer look

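Of 154 groups of 4 values tested, 9 held an array far from the other 3, where chance gives about 1 in 20 (7.7 here). Neither hspa1b nor hmox1 was among them. Levels are log2 relative to the array's 75th percentile. In the small heat shock protein gene hspb6, finasteride 3 stood at 4.64 against 3.34 to 3.55 on the other finasteride arrays, and control 2 at 3.98 against 3.25 to 3.37 on the other control arrays. Finasteride 1 stood at 3.98 against 3.32 to 3.38 for usp14 and at -0.32 against 0.12 to 0.19 for uchl5. Control 4 stood at 1.45 against 1.09 to 1.15 for cpox and at 1.09 against 0.43 to 0.53 for nfe2l3. Control 3 stood at -3.40 against -2.58 to -2.45 for gpx1, control 2 at -1.15 against -0.12 to 0.05 for star, and control 1 at -2.60 against -2.54 to -2.53 for spata6.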

How the results depend on the processing

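The differences of hspa1b and hmox1 kept their direction under 21 alternatives and moved by less than 1 SD between replicates. That direction could not turn with an array left out or on a slide alone, since the groups did not overlap in the reported scaling. With 1 array left out the differences ran from -1.18 to -0.81 for hspa1b and from -0.77 to -0.53 for hmox1. The slide difference did not pass in any alternative, and its size was unsteady, with 0.01 for hspa1b under normexp. No stress gene was called in any alternative, hspa1b and hmox1 being left out of that count. With the replicate block, 0 probes were called higher and 0 lower, while the differences, -1.01 for hspa1b and -0.69 for hmox1, cannot change under it or under a slide block, since each number and slide holds both groups equally. Of 75 other named genes, 65 moved by over 1.5 times or changed sign without some array, and none of them was called. Probes called higher numbered 1 with the uncorrected median signal, 1 with normexp and flagged backgrounds replaced, and 1 within slide 2. With 1 array left out, 0 to 2 were higher (2 without finasteride 2, 1 without finasteride 4 and 1 without control 3) and 0 to 6 lower (6 without control 3, 2 without finasteride 1 and 1 without finasteride 4). The cause of these was not tested.

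With normexp on median signals the median of all probes was 0.23, and of 77 genes 19 changed sign by more than 1 SD: bach1 (0.80), hspa12a (0.69), hspa12b (0.54), slc25a37 (0.54), ppox (0.36), cp (0.33), bag1 (0.0682), gpx1 (0.20), txnip (0.77), atf6b (0.30), trib1 (0.51), atf3 (0.17), cxcr4 (0.84), flt1 (0.73), tek (0.68), robo4 (0.51), igf1 (0.66), slc4a1 (0.75) and sptb (0.58). A further 8 moved by more than 1 SD without a change of sign, among them iba57 (-0.27), cd74 (1.00) and slc12a3 (-0.01). With flagged local backgrounds replaced, 0 of the 77 changed sign by that much and the median of all probes was -0.03, but cd74 (0.03), epb41 (0.35) and krt18.2 (0.22) moved by more than 1 SD. The same 3 genes moved with the uncorrected median signal, to 0.09, 0.44 and 0.27. The fitted background mean was -1719 on finasteride 4, -799 on finasteride 3, -126 on finasteride 1 and -2284 on control 4 before that replacement, and between 1.87 and 11.3 on all arrays after it. The sign also turned for fech (-0.32), psmd11 (-0.30) and star (0.27) within slide 1, and for usp14 (0.32) and ddit3 (-0.076) within slide 2. The correlation of hspa1b and hmox1 deviations turned to 0.37 with normexp, 0.018 in the authors' deposited table and 0.16 without finasteride 1, and ran from -0.70 to 0.16 with 1 array left out. Smaller changes of sign, within 1 SD, were not counted.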
